A study of Mus musculus with 6 samples.

Results

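The 9 genes described here encode proteins that recognise DNA or RNA in the cytosol and pass the signal on: Cgas, Sting1, Tbk1, Ikbke, Irf3, Trex1, Mavs, Ifi204 and Aim2. They were taken from the table by gene name, as a set drawn up with earlier results of these data known, and all 9 were found among the 57180 gene rows of the expression table. The libraries came from GC-1 spg cells, an immortalised mouse line derived from type B spermatogonia, collected 24 hours after transfection. Per the labels, 3 libraries were made from cells overexpressing SNHG1 (Ov_SNHG1), the host transcript of several small nucleolar RNAs, and 3 from cells given the vector control (Vector). All 6 also carry the treatment label "Non-obstructive azoospermia", which the labels do not explain further. Positions are those of the deposited table, which names no build and does not match GRCm38.p6. Both groups were transfected and no untransfected cells are among the samples, so the response to transfection itself is not measured here. The sources used here do not give the sequence of the construct or say whether replicates were separate cultures. The p-values thus reflect the spread among these 6 libraries, some of which may be technical.

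As background, cGAS binds double-stranded DNA in the cytosol and makes the second messenger cGAMP, which activates the membrane adaptor STING. STING and MAVS, the adaptor of the RNA sensors on the mitochondrial surface, both recruit the kinase TBK1 and its relative IKK-epsilon, which phosphorylate the transcription factor IRF3 and lead to type I interferon. The exonuclease TREX1 degrades cytosolic DNA, and AIM2 uses it to assemble an inflammasome.

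Library totals lay between 15521900 and 21095427 counts. A count of 0 thus allows up to 0.142 to 0.193 CPM, counts scaled to a common library size, with 3 counts as the floor and counting error only. Snhg1 stood at 25.2 ± 1.19 CPM in the libraries labelled Ov_SNHG1 against 23.0 ± 2.63 CPM with Vector (SD, n = 3 each), and the groups overlapped (log2 fold change 0.14, 95% interval -0.09 to 0.37, edgeR adjusted p = 0.52). That value ran from 0.07 without Vector replicate 3 to 0.22 without Vector replicate 2. The gene named on the labels was thus not measurably raised, and directions below are those of the labels. Replicate 1 of the libraries labelled Ov_SNHG1 stood apart from the rest on the second principal component, which held 19.0% of the variance. Germ cell markers were nearly absent: 10 of 18 had no count in any library, Ddx4, Kit and Zbtb16 among them, and their summed level was 2.28 to 3.39 CPM in the libraries labelled Ov_SNHG1 and 1.87 to 2.39 CPM in the Vector libraries. The labelled cell type is thus not borne out by these markers.

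Of the 9 genes, 8 had enough counts to be tested, and 1 of them, Cgas, rose in the libraries labelled Ov_SNHG1, while none fell. Across the table edgeR's quasi-likelihood test with Benjamini-Hochberg adjustment called 2.40% of 14605 genes, 1.54% as higher and 0.856% as lower. With 8 genes tested, 1 call is too few to set against that share. The median log2 fold change of the 8 was 0.02, against 0.01 for all tested genes. A value above 0 was found in 5 of the 8 and in 7488 of all 14605 tested genes. The other 7 tested genes lay between -0.20 and 0.19 on the log2 scale, with adjusted p from 0.338 to 0.986.

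**Figure D1:**
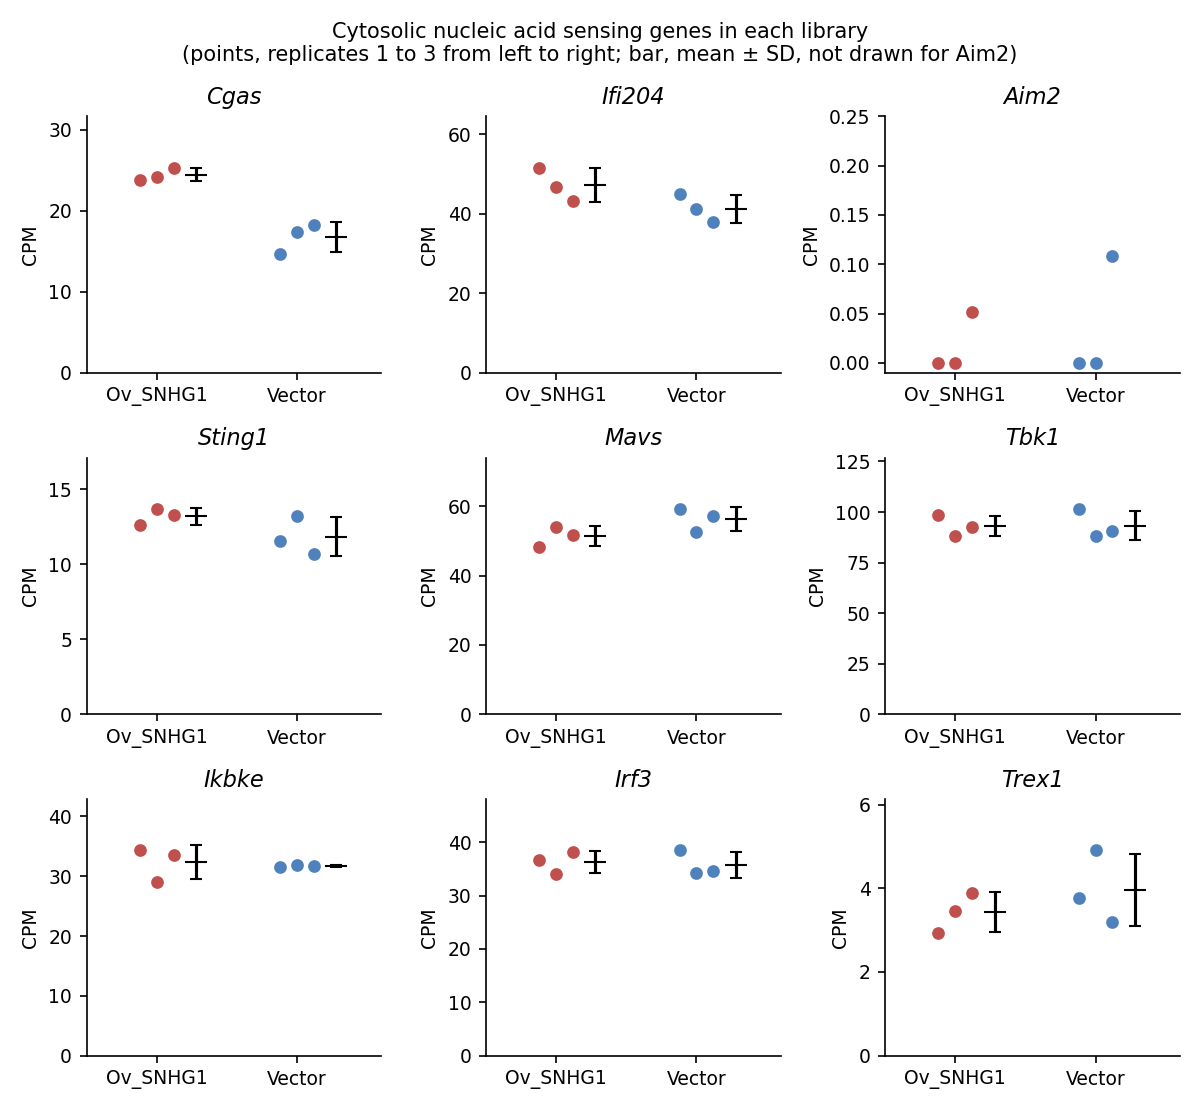
CPM of each of the 9 genes (vertical axes from 0, except Aim2) in the 3 libraries labelled Ov_SNHG1 (red) and the 3 Vector libraries (blue), with the mean ± SD over 3 libraries. Only Cgas has no overlap between the groups, at 23.8 to 25.3 CPM in the libraries labelled Ov_SNHG1 against 14.7 to 18.3 CPM with Vector.

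Cgas (ENSMUSG00000032344, chromosome 9, 78337808 to 78350519), the enzyme that senses DNA and makes cGAMP, was the gene that moved. It stood at 23.8, 24.2 and 25.3 CPM in the libraries labelled Ov_SNHG1, from 464, 510 and 488 counts, against 14.7, 17.4 and 18.3 CPM in the Vector libraries, from 309, 269 and 337 counts. Every library labelled Ov_SNHG1 was above every Vector library, a separation that 23.7% of all tested genes showed. The means were 24.5 ± 0.773 CPM for Ov_SNHG1 and 16.8 ± 1.85 CPM for Vector (SD, n = 3 each), a 1.46-fold difference with a 95% interval of 1.24 to 1.71 (log2 fold change 0.54 ± 0.10 SE, edgeR adjusted p = 0.034). Of the 225 genes called higher, 132 had a larger fold change than Cgas, so its increase was below the median of that group.

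The Cgas call rests on most of the libraries being present. Leaving out 1 library kept the fold change between 0.45 and 0.61 on the log2 scale, but the call was lost in 5 of 6 cases: the adjusted p was 0.11 without Ov_SNHG1 replicate 2, 0.114 without Ov_SNHG1 replicate 3, 0.1 without Vector replicate 1, 0.102 without Vector replicate 2 and 0.0672 without Vector replicate 3. Without Ov_SNHG1 replicate 1, the library that stood apart, it was 0.0392. Removing each library's trends with GC content and transcript length, an alternative chosen after the data were seen, gave 0.58 ± 0.10 (log2, SE) and an adjusted p of 0.0282. The call was also lost with limma on log2(FPKM + 1), at 0.38 (adjusted p = 0.0628).

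**Figure D2:**
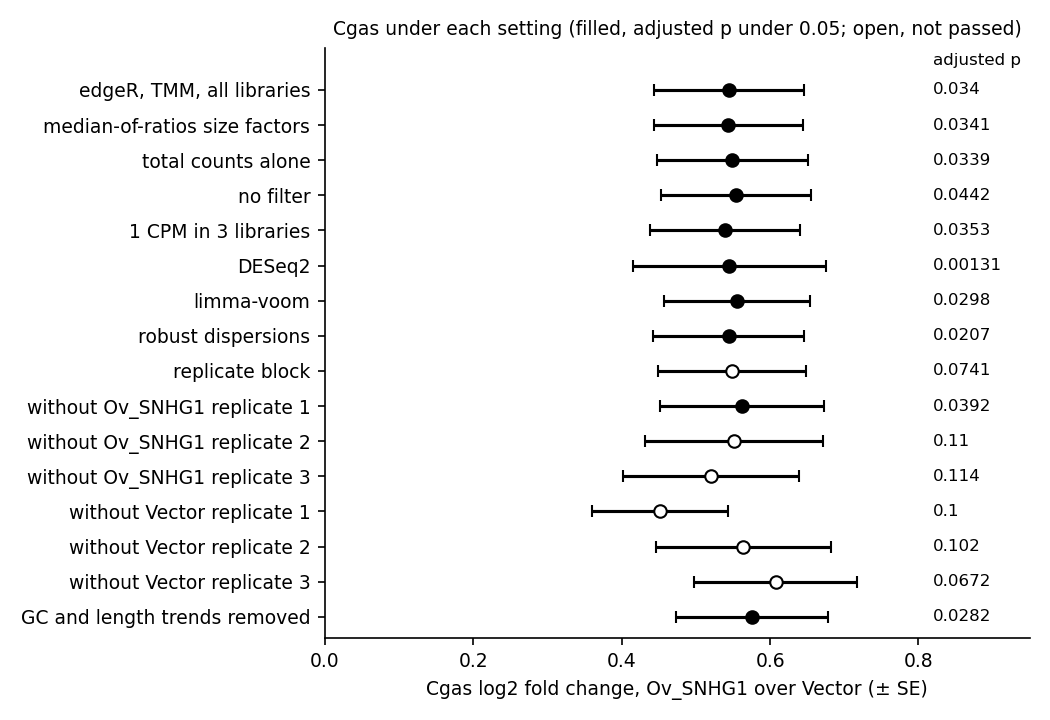
Log2 fold change of Cgas, Ov_SNHG1 over Vector, with its standard error (horizontal axis) in 16 fits on the counts (rows), filled where the adjusted p at the right is under 0.05. The value lies between 0.45 and 0.61 in these fits, while 5 of the 6 fits that leave out 1 library, and the fit with the replicate number as a block, are open.

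The promoter of Cgas is shown because Cgas was the 1 gene called, and that of Tbk1 because it was the most abundant of the 9 per length and moved least. Both are RefSeq sequences of GRCm38.p6, from 250 bases before to 50 bases after the annotated start, read 5′ to 3′ on the minus strand, at chr9:78443188-78443487 for Cgas and chr10:121586745-121587044 for Tbk1. Capitals mark GC boxes (GGGCGG on either strand).
Cgas: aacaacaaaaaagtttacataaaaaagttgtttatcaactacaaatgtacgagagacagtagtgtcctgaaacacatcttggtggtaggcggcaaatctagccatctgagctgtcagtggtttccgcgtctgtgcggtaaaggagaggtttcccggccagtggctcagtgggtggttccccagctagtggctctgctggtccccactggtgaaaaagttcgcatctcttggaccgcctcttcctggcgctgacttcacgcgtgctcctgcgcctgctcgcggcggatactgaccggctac
Tbk1: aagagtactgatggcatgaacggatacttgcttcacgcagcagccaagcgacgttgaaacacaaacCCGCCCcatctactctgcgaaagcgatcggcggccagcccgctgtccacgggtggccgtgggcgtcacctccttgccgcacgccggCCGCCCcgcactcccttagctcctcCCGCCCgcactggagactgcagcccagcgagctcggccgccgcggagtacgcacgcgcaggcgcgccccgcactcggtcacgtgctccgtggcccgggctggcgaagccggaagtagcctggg
The searches, on both strands, were for the IRF element (GAAA, any 2 bases, GAAA; in 3.44% of 32851 RefSeq promoters of this length), the STAT element TTCNNNGAA (8.3%), the NF-kappaB consensus (8.46%), the CCAAT box CCAAT (37.4%) and the GC box (35.7%). None of the 5 was found in the Cgas window, and the Tbk1 window held 3 GC boxes and no other match. Promoters were on hand for 7 of the 9 genes, and the IRF and STAT elements were found in none of those windows. No match says only that these letters are not in these windows.

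By a fixed rule, the tested genes whose profile over the 6 libraries lay nearest to that of Cgas were Gadd45a, a stress-induced growth arrest gene, Tymp, thymidine phosphorylase, and Tspo, a protein of the outer mitochondrial membrane. Their Euclidean distances, on log2 CPM centred per gene, were 0.0962, 0.134 and 0.139 among 13267 genes with a mean of at least 20 counts. The distance includes the difference between the groups, so genes near Cgas have a similar fold change by selection. Their values are thus only a description: Gadd45a had a log2 fold change of 0.57 ± 0.10 (SE, edgeR adjusted p = 0.0241), Tymp one of 0.59 ± 0.10 (adjusted p = 0.0196) and Tspo one of 0.46 ± 0.07 (adjusted p = 0.0181).

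Ifi204 (ENSMUSG00000073489, chromosome 1, 173574859 to 173594509), a mouse DNA-binding protein of the interferon-inducible Ifi200 family, did not pass. It stood at 51.6, 46.7 and 43.1 CPM in the libraries labelled Ov_SNHG1 and at 44.9, 41.2 and 37.9 CPM in the Vector libraries. The groups overlapped, since Vector replicate 1 lay above Ov_SNHG1 replicate 3. The log2 fold change was 0.19 with a 95% interval of -0.02 to 0.40 (edgeR adjusted p = 0.338), and the interval does not exclude an increase of up to 1.32-fold. Without Ov_SNHG1 replicate 1 the value was 0.12, and without Vector replicate 3 it was 0.13. The family has near-identical relatives on chromosome 1, and the sources used here do not say how reads were split between them, so its level is uncertain.

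Aim2 (ENSMUSG00000037860, chromosome 1, 173178445 to 173293606), the DNA sensor that starts an inflammasome, was not detectable at this depth. It had 0, 0 and 1 counts in the libraries labelled Ov_SNHG1 and 0, 0 and 2 counts in the Vector libraries, and was not tested. The adaptor that AIM2 needs, Pycard, was listed at 0 in all 6 libraries, and Casp1, the protease it activates, had 4, 6 and 1 counts in the libraries labelled Ov_SNHG1 against 0, 0 and 2 counts in the Vector libraries.

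Sting1 (ENSMUSG00000024349, chromosome 18, 35866732 to 35873607), the receptor for the messenger that cGAS makes, stood at 12.6, 13.7 and 13.3 CPM in the libraries labelled Ov_SNHG1 and at 11.6, 13.2 and 10.7 CPM in the Vector libraries. Vector replicate 2 lay within the range of the other group. Its log2 fold change was 0.16, with a 95% interval of -0.10 to 0.41 (edgeR adjusted p = 0.504). The 2 proteins act in series, and the ratio of Cgas to Sting1 counts within a library was 1.89, 1.77 and 1.91 in the libraries labelled Ov_SNHG1 and 1.27, 1.31 and 1.71 in the Vector libraries, given as a description with no test.

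Mavs (ENSMUSG00000037523, chromosome 2, 131075983 to 131089945), the mitochondrial adaptor of the RNA sensors, did not pass. It stood at 48.25, 54.0 and 51.75 CPM in the libraries labelled Ov_SNHG1 against 59.2, 52.5 and 57.1 CPM in the Vector libraries, where Vector replicate 2 lay below Ov_SNHG1 replicate 2. The log2 fold change was -0.13 with a 95% interval of -0.30 to 0.03 (edgeR adjusted p = 0.387), so a decrease of more than 18.9% lies outside the interval.

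The kinases and the transcription factor they act on had the log2 fold changes nearest to 0. Tbk1 (ENSMUSG00000020115, chromosome 10, 121382360 to 121422692) stood at 98.4, 88.3 and 92.6 CPM in the libraries labelled Ov_SNHG1 and at 101.5, 88.0 and 90.4 CPM in the Vector libraries, so the ranges nearly coincided. Its log2 fold change was -0.004, with a 95% interval of -0.17 to 0.17 (edgeR adjusted p = 0.986), or 0.887-fold to 1.12-fold. Ikbke (ENSMUSG00000042349, chromosome 1, 131182080 to 131207344), whose product IKK-epsilon shares substrates with TBK1, stood at 34.3, 29.1 and 33.6 CPM in the libraries labelled Ov_SNHG1 and at 31.5, 31.9 and 31.8 CPM in the Vector libraries. The Vector libraries all fell within the wider range of the other group, and the log2 fold change was 0.03, with a 95% interval of -0.16 to 0.21 (edgeR adjusted p = 0.894). Irf3 (ENSMUSG00000003184, chromosome 7, 44647072 to 44652272) stood at 36.7, 34.0 and 38.15 CPM in the libraries labelled Ov_SNHG1 and at 38.45, 34.1 and 34.5 CPM in the Vector libraries. These ranges also overlapped, with a log2 fold change of 0.02 and a 95% interval of -0.16 to 0.20 (edgeR adjusted p = 0.911). On the deposited coordinates Irf3 overlaps Bcl2l12, which GENCODE M21 places on the opposite strand and whose counts summed to 48.9% of those of Irf3. No source used here gives the strand setting of the counting, so reads of the shared stretch may not be told apart. Bcl2l12 itself had a log2 fold change of -0.01 (edgeR adjusted p = 0.976).

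Trex1 (ENSMUSG00000049734, chromosome 9, 108887001 to 108888802), the exonuclease that clears cytosolic DNA, was the least abundant tested member by CPM and the least precisely measured. It had 57, 73 and 75 counts in the libraries labelled Ov_SNHG1 and 79, 76 and 59 counts in the Vector libraries, or 2.93, 3.47 and 3.89 CPM for Ov_SNHG1 against 3.76, 4.91 and 3.20 CPM for Vector. The groups overlapped, and the log2 fold change was -0.20 with a 95% interval of -0.66 to 0.26 (edgeR adjusted p = 0.645), so changes from 0.633-fold to 1.20-fold remain within the interval. Without Vector replicate 2 the log2 fold change was -0.03, without Vector replicate 3 it was -0.33, and without Ov_SNHG1 replicate 1 it was -0.10. Trex1 lies wholly inside Atrip on the deposited coordinates, and GENCODE M21 puts both on the same strand. Atrip had 661% of the counts of Trex1 and did not pass either (log2 fold change 0.21, edgeR adjusted p = 0.491). The Trex1 count is therefore uncertain.

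**Figure D3:**
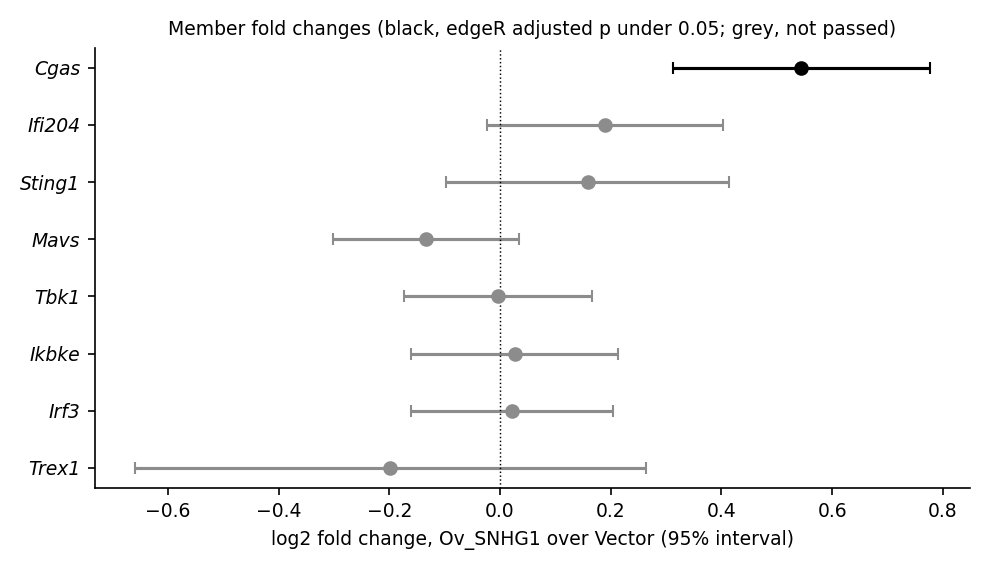
Log2 fold change, Ov_SNHG1 over Vector, with its 95% interval (horizontal axis) for the 8 tested genes. Cgas (black) lies at 0.54, with an interval of 0.31 to 0.78, and the intervals of the 7 others (grey) include 0, that of Trex1 being the widest.

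Levels of different genes were compared per length, as CPM per kilobase of the longest GENCODE M21 transcript. In the Vector libraries Tbk1 was highest, at 30.8 ± 2.38 CPM per kb, followed by Mavs at 18.4 ± 1.12, Ifi204 at 18 ± 1.53 and Irf3 at 17.6 ± 1.17 (SD, n = 3). Those 3 lay within 1 SD of each other. Below them came Ikbke at 5.42 ± 0.0293, Sting1 at 5.15 ± 0.560, Cgas at 4.15 ± 0.457 and Trex1 at 3.65 ± 0.800 CPM per kb. Ikbke lay within the SD of Sting1, and Cgas within that of Trex1, but not the reverse. Aim2 was below the floor. In the libraries labelled Ov_SNHG1 Cgas stood at 6.04 ± 0.191, beside Sting1 at 5.74 ± 0.241 and Ikbke at 5.52 ± 0.485 CPM per kb. The deposited FPKM values give another order, with Ifi204 at 10.4 FPKM above Mavs at 9.90 FPKM and Cgas at 1.88 FPKM above Sting1 at 1.71 FPKM in the Vector libraries. Irf3, which lay beside Mavs and Ifi204 per kb, stood well below them at 4.25 FPKM, and Trex1 at 1.85 FPKM was above Sting1. The length implied by counts and FPKM was 1.72 to 4.13 times that of the longest transcript, highest for Irf3. Taken at face value, the implied length exceeded the deposited gene span for Irf3, at 8384 against 5201 bases. It also did so for Trex1 (2138 against 1802 bases) and narrowly for Sting1 (6883 against 6876 bases). For these genes it is then not a transcript length, and the FPKM order is the less certain. Both the order and the groups named above thus depend on which length is used.

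Genes around the 9 were followed in 11 lists, from sensors to interferon targets, with 180 different genes tested. Of these 17 rose and 1 fell, 10% in all against 2.40% over the table, and their median log2 fold change was 0.10 against 0.01. Leaving out Vector replicate 1 or 2 lowered the number called to 8 and 9, while calls over the table fell from 350 to 123 and 151. The lists were made with earlier results of these data known, so their counts are a description. The count of each list below stands beside the same 2.40%, and 1 call in a short list is too few to set against it.

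**Figure D4:**
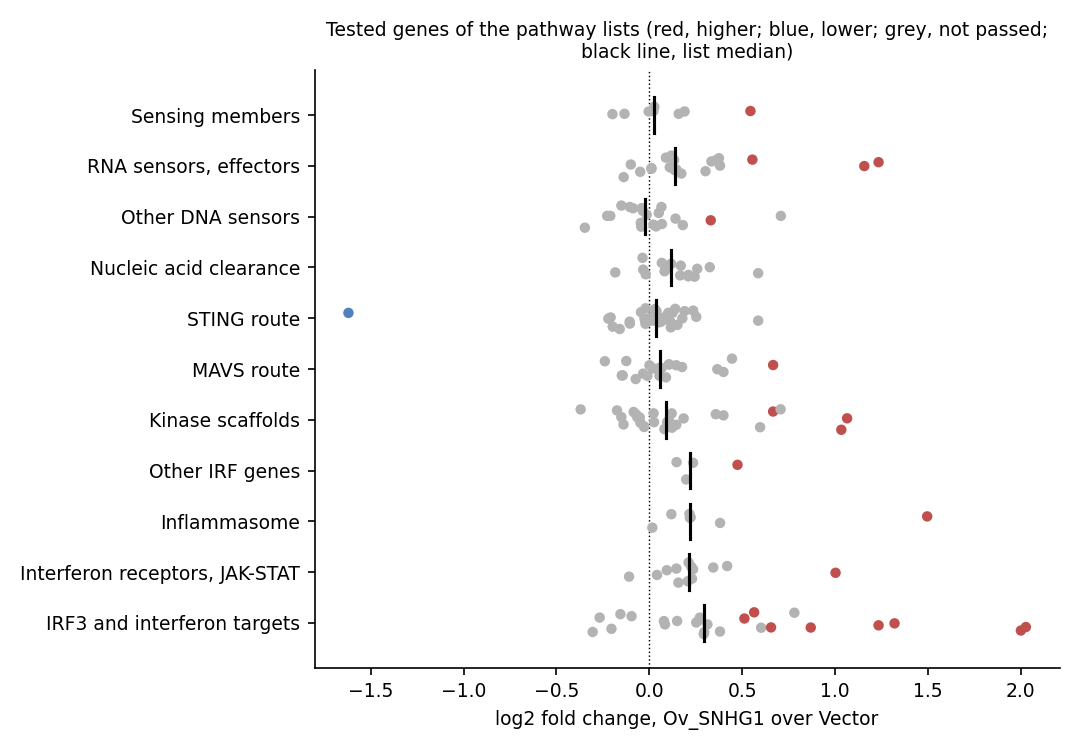
Log2 fold change, Ov_SNHG1 over Vector (horizontal axis), of every tested gene of the 9 members and of 10 pathway lists (rows), coloured by the edgeR call, with each list's median as a black line. The largest median is in the IRF3 and interferon target list, at 0.30, the largest increases are Gbp5 and Ccl5, and the lone called decrease is Tmed2.

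Among cytosolic RNA sensors and effectors, 3 of 21 tested genes rose and none fell. Zbp1, a sensor of Z-form nucleic acid, stood at 39.8, 37.9 and 31.6 CPM in the libraries labelled Ov_SNHG1 and at 15.4, 16.3 and 14.8 CPM in the Vector libraries, with no overlap (log2 fold change 1.23 ± 0.10 SE, edgeR adjusted p = 0.000867). Oas2 and Oas3, enzymes that make 2-5A in response to double-stranded RNA, rose by 1.16 ± 0.15 and 0.55 ± 0.08 (log2, SE; edgeR adjusted p = 0.0076 and 0.0129). The Oas3 call was lost without Ov_SNHG1 replicate 2, Vector replicate 1 or Vector replicate 2 (adjusted p = 0.0511, 0.0695 and 0.0537). Rigi, which encodes the receptor RIG-I, stood at 129 ± 7.63 CPM for Ov_SNHG1 and 119 ± 1.67 CPM for Vector (SD, n = 3 each) and did not pass (log2 fold change 0.12, or 0.07 without Ov_SNHG1 replicate 1, edgeR adjusted p = 0.347). Dhx58, which encodes LGP2, a regulator of the RIG-I and MDA5 receptors, had a log2 fold change of 0.38 (edgeR adjusted p = 0.0989, DESeq2 adjusted p = 0.0442). DESeq2 called 646 genes over the table, against 350 with edgeR. With any 1 library left out Dhx58 did not pass (edgeR adjusted p = 0.11 to 0.259). Ifih1, the gene of MDA5, had 1, 2 and 0 counts in the libraries labelled Ov_SNHG1 and 0 in each Vector library, at or under the floor in both groups, and was not tested.

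Among 20 tested genes of other DNA sensors, 1 rose and none fell. It was Ifi202b, an Ifi200 family gene known to bind DNA without the signalling domain of its relatives, at 79.99 ± 3.18 CPM for Ov_SNHG1 against 63.6 ± 1.91 CPM for Vector (SD, n = 3 each; log2 fold change 0.33 ± 0.06 SE, edgeR adjusted p = 0.0292). That call was lost without any 1 library other than Ov_SNHG1 replicate 1, with adjusted p from 0.0588 to 0.13 in those 5 fits. The rest of the list lay between -0.35 and 0.71 on the log2 scale. The same limit on near-identical relatives holds as for Ifi204.

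Genes that remove or shield cytosolic nucleic acid had 0 calls among 17 tested with edgeR, and 3 with an unadjusted p under 0.05, where 17.0% of all tested genes had one. Enpp1, which hydrolyses extracellular cGAMP, stood at 18.5 ± 2.51 CPM for Ov_SNHG1 against 12.3 ± 1.85 CPM for Vector (SD, n = 3 each; log2 fold change 0.59, edgeR adjusted p = 0.0946) and passed with DESeq2 (adjusted p = 0.0103) and with GC and length trends removed (adjusted p = 0.0463). It did not pass with any 1 library left out (edgeR adjusted p = 0.11 to 0.224). Samhd1, a dNTPase that limits cytosolic DNA, had a log2 fold change of 0.11 (edgeR adjusted p = 0.46), and Trex2, the other gene of the Trex family, was listed at 0 throughout.

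Along the route of STING, 1 of 33 tested genes fell and none rose. Tmed2, a cargo receptor between the endoplasmic reticulum and the Golgi that has been linked to STING, stood at 26.7, 31.5 and 33.95 CPM in the libraries labelled Ov_SNHG1 and at 112.8, 114.4 and 56.5 CPM in the Vector libraries. Vector replicate 3 lay far from the other replicates of its group. The log2 fold change was -1.62 ± 0.25 (SE, edgeR adjusted p = 0.0175), and the call was lost with robust dispersions (adjusted p = 0.0902), with limma on log2(FPKM + 1) (adjusted p = 0.0516) and without Ov_SNHG1 replicate 2 or 3 or Vector replicate 1 or 2 (adjusted p = 0.0698, 0.0543, 0.0743 and 0.0678).

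Among partners of MAVS, 1 of 21 tested genes rose and none fell. It was Traf2, an adaptor of NF-kappaB signalling that is also on the list of kinase scaffolds, at 63.9 ± 1.71 CPM for Ov_SNHG1 against 40.2 ± 4.09 CPM for Vector (SD, n = 3 each; log2 fold change 0.67 ± 0.08 SE, edgeR adjusted p = 0.00687). Of 28 tested kinase scaffolds and regulators, 3 rose: Traf2, the deubiquitinase Tnfaip3 (1.07 ± 0.15, adjusted p = 0.0139) and the cytokine signalling inhibitor Socs3 (1.03 ± 0.11, adjusted p = 0.00378; log2, SE, edgeR). The Tnfaip3 call was lost without Vector replicate 1 or 2 (adjusted p = 0.067 and 0.0607). Traf3, the adaptor that links MAVS to TBK1, had a log2 fold change of 0.40 (edgeR adjusted p = 0.0636, DESeq2 adjusted p = 0.0303), and Tank, a TBK1 scaffold, had one of 0.03 (edgeR adjusted p = 0.909). With any 1 library left out Traf3 did not pass (edgeR adjusted p = 0.068 to 0.202).

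Interferon genes themselves had too few counts to test. Of 20 type I and III interferon genes, 18 were listed at 0 in all 6 libraries, including Ifnb1, the gene of interferon beta. Ifne and Ifnz held all 54 counts of the list, whose summed level was 0.208 to 0.719 CPM in the libraries labelled Ov_SNHG1 and 0.326 to 0.645 CPM in the Vector libraries. For Ifnb1 a count of 0 allows up to 0.142 to 0.193 CPM, depending on the library.

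Of 25 tested genes known to follow IRF3 or interferon, 8 rose and none fell, or 32% called against 2.40% over the table. Their median log2 fold change was 0.30, against 0.01 for all tested genes. As with the other lists, these counts are a description. The chemokine Ccl5 stood at 82.5, 89.9 and 93.7 CPM in the libraries labelled Ov_SNHG1 and at 21.9, 21.7 and 22.9 CPM in the Vector libraries, without overlap (log2 fold change 2.00 ± 0.07 SE, edgeR adjusted p = 9.53e-06). Cxcl10, a chemokine, and the interferon-inducible genes Rtp4 and Gbp3 rose by 1.32 ± 0.11, 0.87 ± 0.13 and 0.66 ± 0.10 (log2, SE; edgeR adjusted p = 0.000672, 0.016 and 0.0185). Ccl5 and Cxcl10 are also known targets of NF-kappaB. Gbp5 rose from few reads, with 12, 15 and 14 counts in the libraries labelled Ov_SNHG1 against 5, 2 and 2 counts with Vector (log2 fold change 2.03 ± 0.41 SE, edgeR adjusted p = 0.048), and its call was lost with any 1 library left out (adjusted p = 0.052 to 0.17). The Rtp4 call was lost in 4 of those 6 fits (without Ov_SNHG1 replicate 2 or 3 or Vector replicate 1 or 2, adjusted p = 0.055 to 0.0678), and the Gbp3 call in 4 (without Ov_SNHG1 replicate 3 or any 1 Vector library, adjusted p = 0.0638 to 0.0835). Zbp1, described above, was also on this list, and Gbp2 and Bst2 rose by 0.56 ± 0.08 and 0.51 ± 0.10 (log2, SE; edgeR adjusted p = 0.0108 and 0.0392). The Gbp2 call was lost without Vector replicate 1 or 3 (adjusted p = 0.0567 and 0.0539), and the Bst2 call without any 1 library other than Ov_SNHG1 replicate 1 (adjusted p = 0.0934 to 0.158). Isg15 and Ifit1, widely used readouts of interferon signalling, did not pass: Isg15 had a log2 fold change of 0.31 (edgeR adjusted p = 0.196) and Ifit1 one of 0.30 (adjusted p = 0.206), or 0.16 without Ov_SNHG1 replicate 1.

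All 4 other interferon regulatory factors that were tested had a log2 fold change above 0, with a median of 0.22. So had 12 of 13 tested interferon receptor and JAK-STAT genes, with a median of 0.21, against 0.01 over all tested genes. Most of them did not pass. Irf1 rose, at 113 ± 12.3 CPM for Ov_SNHG1 against 81.4 ± 0.735 CPM for Vector (SD, n = 3 each; log2 fold change 0.47 ± 0.08 SE, edgeR adjusted p = 0.0233), a call lost without Ov_SNHG1 replicate 3 or any 1 Vector library (adjusted p = 0.0556 to 0.0994). Irf7, the factor that amplifies type I interferon, was listed at 0 in all 6 libraries. The receptor chain Ifnar2 rose, at 55.5, 43.1 and 49.98 CPM in the libraries labelled Ov_SNHG1 against 25.25, 23.4 and 25.4 CPM with Vector (log2 fold change 1.00 ± 0.10 SE, edgeR adjusted p = 0.0022), and was the 1 gene called of 13 tested receptor and JAK-STAT genes. Of 7 tested inflammasome genes 1 rose, Casp4, the mouse caspase-11 that senses lipopolysaccharide, at 15.0, 13.1 and 12.8 CPM in the libraries labelled Ov_SNHG1 against 4.29, 4.84 and 5.37 CPM with Vector (log2 fold change 1.496 ± 0.13 SE, edgeR adjusted p = 0.001).

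Several of these genes are also abundant in macrophages, so blood cell markers were read beside them. Of 20 such markers 5 could be tested and 1, Cd14, rose; Tyrobp and Ly6g were among those with no count, and Ptprc and Adgre1 had 25 and 28 counts over all 6 libraries. The summed level was 45.1 to 50.6 CPM in the libraries labelled Ov_SNHG1 and 36.8 to 37.1 CPM in the Vector libraries, and without Cd14 it was 22 to 24.5 CPM for Ov_SNHG1 against 22.1 to 23.4 CPM for Vector. The sum without Cd14 leaves out the 1 marker called, so it is only a description. The other 4 tested markers went both ways, with log2 fold changes from -0.47 to 0.64 (edgeR adjusted p of 0.0904 or more). Testicular somatic markers summed to 966 to 1040 CPM for Ov_SNHG1 and 856 to 868 CPM for Vector. Of 23 such markers 11 were tested and 1, Pdgfra, rose, while 8 had no count, Wt1, Fshr and Cyp11a1 among them. The list pools Sertoli, Leydig, peritubular and endothelial markers, and 1 marker held 64679 of its 106888 counts, so the sum mostly follows that gene. The part of such cells in the results was not tested. In bulk libraries a change in the share of a cell type and a change in RNA per cell cannot be told apart. Over the genes tested, log2 fold changes ran with the GC content of the longest transcript (Spearman rho 0.294) and against its length (rho -0.205). Both are a description over genes and not over samples. The longest Cgas transcript has 45.9% GC, where the median was 49.5%. With GC and length trends removed, a fit chosen after the data were seen, the Cgas value was 0.58, as above. The cause of these trends was not tested.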

How the data were processed

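Poly(A)-selected, stranded libraries of GC-1 spg cells were sequenced, per the labels' protocols. The authors deposited whole-number counts and FPKM values per gene. HISAT2, SAMtools 1.3.1, StringTie and the human build GRCh38 are named in the submitters' processing notes, whereas gene rows have mouse Ensembl IDs. No source used here gives the tool that counted reads, its use of strand or the build of the positions. The deposited FPKM values were scaled by each library's total count, since count over FPKM and total differed within a gene by at most 0.0617%.

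Groups were taken from the titles. Counts were tested with edgeR 4.0.16 in R 4.3.3 (quasi-likelihood F test, TMM factors of 0.9961 to 1.005, filterByExpr, group as the only term) with Benjamini-Hochberg adjustment over 14605 genes at 0.05. CPM used the TMM-scaled totals, and SE is from the fit. The 9 members and the gene lists were chosen with earlier results of these data known. Named with values were the members, Snhg1, up to 6 called genes per list by fold, genes listed by name whatever their result and the 3 nearest profiles of a called member. Markers are also named, as are Bcl2l12, Atrip, Gbp2 and Bst2, chosen after their values were seen. Alternatives were DESeq2 1.42.0, limma 3.58.1, other scalings and filters, robust dispersions, the replicate number as a block and leaving out each library. The pipeline was tested on simulated data.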

Additional observations from a re-analysis of the deposited data

How the results depend on the processing

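Each of the 8 tested members was refitted under 16 alternatives, and 7 of them never passed. Cgas kept its direction in all 16 and its call in 9. Besides the fits without 1 library it was lost on log2(FPKM + 1) with limma (0.38, adjusted p = 0.0628), a scale that understates changes of low genes. Against 1 member called, the count ran from 0 to 1 without single libraries. Against 350 called genes, DESeq2 gave 646, and fits without single libraries gave 123 to 807, the highest without Ov_SNHG1 replicate 1; against 18 called pathway genes they gave 8 to 20. The causes were not tested, though fewer libraries remain in those fits. Same-numbered libraries did not deviate together (correlations of 0.0289, -0.0462 and -0.0141), so the replicate numbers were not taken as pairs; with the replicate block 163 genes and 0 members were called, and Cgas stood at 0.55 (adjusted p = 0.0741). Of the pathway genes named, the block also ended the calls of Tmed2 (adjusted p = 0.0514), Irf1 (0.0533), Gbp3 (0.0599), Ifi202b (0.0973) and Gbp5 (0.144). On log2(FPKM + 1) with limma, Tmed2, Bst2 (adjusted p = 0.0738) and Gbp5 (0.329) did not pass, nor did Gbp5 with no filter (0.073). Without single libraries Trex1 ran from -0.333 to -0.0296, Mavs from -0.186 to -0.0926, Sting1 from 0.0868 to 0.238 and Ifi204 from 0.118 to 0.252. Log2 values near 0 changed sign: Tbk1 to 0.00144 with total counts alone, 0.00604 with no filter, 0.0257 with GC and length trends removed, 0.00288 on FPKM and between -0.0493 and 0.0573 without single libraries; Irf3 to -0.0558 with those trends removed and between -0.0141 and 0.0753 without single libraries; and, without single libraries, Ikbke to between -0.0200 and 0.0979 and Tank to between -0.0311 and 0.0774. Trex1 and Aim2 had the fewest counts of the 9 members, and the Trex1 count is also uncertain through its overlap with Atrip.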
